A study of Zea mays with 4 samples.

Results

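Broad ZmICE1a-bound regions of maize (Zea mays) endosperm are here the regions at which a CUT&Tag peak, called with an antibody against ZmICE1a, was 1200 bp wide or more. They were chosen from the authors' 2 peak lists on chromosomes 1 to 10. Peaks that overlapped by 1 bp or more between the lists formed a shared region, and a region was broad when its widest peak reached 1200 bp in each list. This held for 579 of 11310 shared regions (5.12%). They were compared with 4004 narrow regions, whose widest peak was under 600 bp in both lists. The remaining 6727 regions lay in between.

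ZmICE1a belongs to the basic helix-loop-helix family, whose members bind DNA as dimers at short sites called E-boxes. Its namesake in Arabidopsis, ICE1, is known for switching on genes of the cold response. The endosperm is the storage tissue of the grain, where starch and zein storage proteins are laid down, and the series asks how the factor sets storage against defence there. In CUT&Tag an antibody brings the transposase Tn5 to the bound protein, and the DNA cut out around it is sequenced. A single short binding site is therefore read as a pile of fragments, and a wide peak is a longer stretch over which fragments exceed the control.

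Per the labels, endosperm was taken from wild-type and mutant plants (2 libraries each, 4 in all), and all nuclei were treated with the antibody against ZmICE1a. They name neither the mutant allele, the inbred line nor the age of the endosperm. The wild-type and mutant libraries of replicate 1 belong to list 1, and those of replicate 2 to list 2. The deposited values show that the caller set a treatment library against a control library in each list. Which genotype was the treatment is not in the labels, so no value here belongs to a genotype. A peak marks an excess of fragments in the treatment over the control library, and whether that excess is binding in the wild type cannot be told from the lists. Treatment fragments and the control background at each summit, the highest point of a peak, were worked out from the listed fold enrichment and p-value. This background is the mean count that the p-value assumes, and need not be the number of control fragments at the summit itself. The treatment library was 1.54 times as deep as its control in list 1 and 0.986 times in list 2, and total depth is unknown. Independence of the lists is not established, and they are counted as 1 sample with their values set side by side. Width chose the regions, and every other value of the same peaks comes from the same contrast of treatment with control. These values are descriptions, no test was made on them, and 95% intervals on counts (Poisson) and shares (binomial) are exact and cover counting error only.

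Broad regions covered 1038704 bp, or 11.3% of the length of all shared regions. That this exceeds their 5.12% of the regions follows from the choice of wide peaks. Their widest peak had a median of 1486 bp in list 1 (interquartile range 1333 to 1757, highest 3657) and 1566 bp in list 2 (1378 to 1868, highest 4873). The narrow regions had medians of 438 and 457 bp, close to the narrowest peak of each list, 350 and 343 bp. Of the 579 broad regions, 528 joined 1 peak of each list (91.2%, 95% interval 88.6 to 93.4), against 96.9% of all shared regions and 4003 of 4004 narrow ones. In 33 of them list 1 had several peaks, and in 23 list 2 had.

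**Figure D1:**
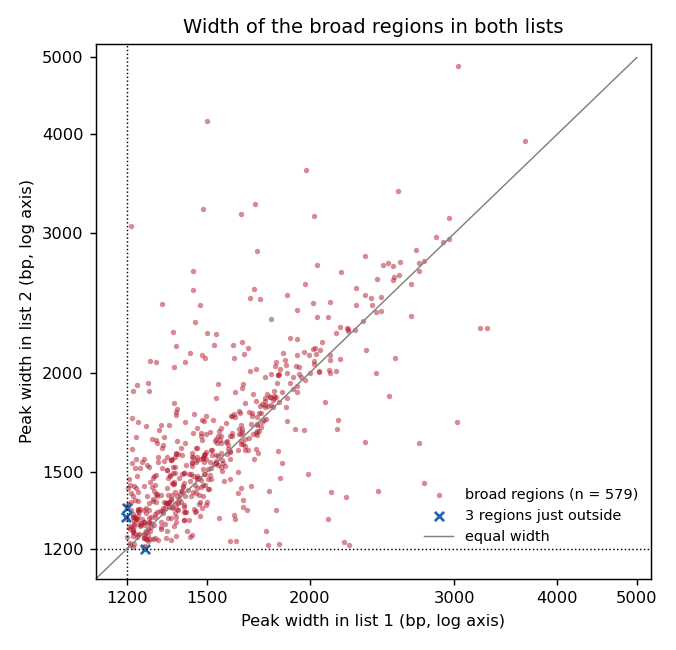
Width of the widest peak in list 1 (x axis, bp, log scale) against list 2 (y axis, bp, log scale) for the 579 broad regions, with the 3 shared regions just below the limit as crosses and the limit of 1200 bp dotted. Points follow the line of equal width, with 395 regions above it, where list 2 had the wider peak.

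The limit of 1200 bp cut through a continuous range of widths. The members just inside it lay at chromosome 9, 66927565 to 66928873 (1200 bp in list 1 and 1309 bp in list 2), chromosome 1, 197642201 to 197643471 (1201 and 1241 bp), and chromosome 7, 126587082 to 126588442 (1203 and 1361 bp). The regions just outside it lay at chromosome 7, 126545523 to 126546903 (1199 and 1352 bp), chromosome 5, 38195449 to 38196763 (1198 and 1315 bp), and chromosome 3, 886147 to 887422 (1262 and 1198 bp). All coordinates are in B73 version 4 and count from 1. The folds of these groups overlapped, from 4.42 to 10.95 inside and 4.31 to 11.8 outside in list 1. In list 2 they ran from 5.01 to 7.88 inside and 3.70 to 7.50 outside.

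A wide peak in one list was nearly always a peak in the other, though often a shorter one. List 1 had 790 peaks of 1200 bp or more on chromosomes 1 to 10, and 787 of them overlapped a list 2 peak. List 2 had 1088, and 1070 of them overlapped a list 1 peak. Most peaks of any width had a partner too, as 11310 shared regions came from 14358 and 17344 peaks in lists 1 and 2. The share with a partner over all peaks was not computed, and a longer peak meets an overlap of 1 bp more easily. Where list 1 alone chose the region, the list 2 width had a median of 1431 bp (interquartile range 1180 to 1731), and 579 of 785 regions (73.8%) reached 1200 bp there. Where list 2 alone chose, the list 1 width had a median of 1235 bp (970 to 1512), and 579 of 1066 (54.3%) reached it. Only 19 and 68 of these regions were under 600 bp in the list that had not chosen them. The number of broad regions thus rests on requiring both lists.

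In base pairs the edges of broad regions differed more between the lists than those of narrow ones. The left edge differed by a median of 61 bp and the right edge by 58 bp, against 39 and 40 bp in narrow regions, and the widths differed by 96 against 52 bp. The stretch common to both peaks was a median of 0.916 times the stretch covered by either, against 0.817 times in narrow regions. That ratio is higher for longer peaks at a given shift. Across the 579 regions the widths of both lists had a Spearman rho of 0.70, over a range of widths that the rule cuts off below. The folds of list 1 and list 2 differed by no more than 1.5 times in 476 of 579 broad regions (82.2%, 95% interval 78.8 to 85.2) and in 2908 of 4004 narrow ones (72.6%, 71.2 to 74.0). The broad regions had more fragments, and the part of this in the closer folds was not tested.

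The widest regions were found on 6 chromosomes, and 4 of the 10 were on chromosome 7. The widest by the smaller of its widths lay at chromosome 7, 127686956 to 127690874. Its peak spanned 3657 bp (list 1) and 3919 bp (list 2), with 216 treatment fragments (95% interval 188 to 247) and 205 (178 to 235) at the summit and folds of 6.23 and 6.96. The summits of both lists were 15 bp apart and lay near the upper end, 586 and 644 bp from it, with arms of 3070 and 3274 bp on the other side. This site was thus a lopsided peak, and the same one in both lists.

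The next in width, chromosome 7, 124927384 to 124932263, was called differently. List 2 had 1 peak of 4873 bp there, while list 1 had 2 peaks, the wider of 3034 bp. The folds were 6.08 and 3.0 and the summits were 882 bp apart. At chromosome 8, 108951945 to 108955078, the widths were 2957 and 3134 bp, but the summits lay 1964 bp apart, near opposite ends. At the chromosome 8 region the lists agreed on the stretch and not on its highest point. At the chromosome 7 region they also differed in the number and width of the peaks.

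Others among the widest show how far the strength of a wide site can vary. The region at chromosome 7, 166196442 to 166199219 (2719 and 2754 bp) had the highest folds of the 10, 15.2 and 11.8, over a control background of 7.0 and 11.8. That at chromosome 7, 170519729 to 170522598 (2694 and 2859 bp) had the lowest, 2.78 and 2.64, although its treatment fragments were no fewer, 187 against 186 in list 1 and 176 against 150 in list 2. Its control background of 43.0 and 66.1 was higher. The region at chromosome 10, 2013393 to 2016177 (2720 and 2690 bp) reached its width with the fewest fragments of the 10, 79 (62.5 to 98.5) and 61 (46.7 to 78.4), and folds of 6.84 and 6.80. Width alone therefore did not give the fold at these sites. The remaining ones lay at chromosome 5, 191694374 to 191697370 and 188796502 to 188799452, chromosome 6, 166275476 to 166278443, and chromosome 1, 190080535 to 190083311. Their widths ran from 2753 to 2968 bp and their folds from 3.45 to 6.04.

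Broad regions had more treatment fragments and a higher control background at the summit than narrow ones. The median summit had 129 treatment fragments in list 1 (interquartile range 92 to 179) against 49 (33 to 69), and 109 in list 2 (76.5 to 155) against 40 (27 to 58). These are ratios of 2.63 and 2.73. The control background was higher by nearly the same factor, 2.6 and 2.65, with medians of 13.0 against 5.0 in list 1 and 19.7 against 7.44 in list 2. The full ranges overlapped, from 24 to 357 treatment fragments in broad and 11 to 288 in narrow regions of list 1.

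The fold enrichment, in contrast, was almost the same in both kinds of region. Its median was 5.78 in broad and 5.45 in narrow regions of list 1, a ratio of 1.06, and 5.24 and 4.86 in list 2, a ratio of 1.08. The deposited fold has a pseudocount of 1, which lowers it where the control is small. Without it the ratio of treatment to control, adjusted for depth, was 6.17 against 6.54 in list 1 and 5.45 against 5.48 in list 2, so that the broad regions were 0.943 and 0.995 times the narrow ones. The direction of this small difference depends on the pseudocount. The −log10 q, which grows with fragments at a given fold, had medians of 32.6 and 40.04 in broad regions and 12.3 and 13.6 in narrow ones.

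**Figure D2:**
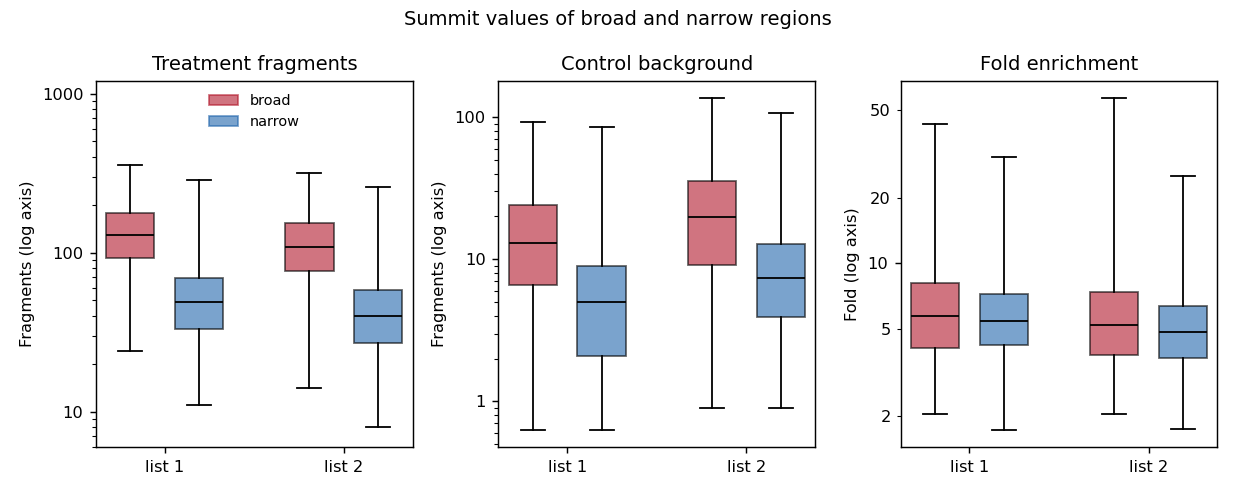
Treatment fragments, control background and the authors' fold enrichment at the summit (log axes) in broad (red) and narrow (blue) regions of both lists; boxes show the quartiles and median, whiskers the lowest and highest region. Treatment fragments and control background lie higher in broad regions, with medians of 129 against 49 and 13.0 against 5.0 in list 1, while the boxes of the fold overlap almost fully.

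The share of broad regions was higher with the number of treatment fragments. Among the shared regions with the fewest fragments in list 1 (9 to 28), 4 of 1190 were broad (0.336%, 0.0917 to 0.858). Among those with the most (145 to 357), 233 of 1126 were (20.7%, 18.4 to 23.2). In list 2 the shares were 1 of 1181 (8 to 23 fragments) and 231 of 1127 (125 to 318 fragments, 20.5%, 18.2 to 23.0). Many fragments were not enough for a wide peak, since 64 regions in the highest group of list 1 and 78 in that of list 2 were narrow. Over all 11310 shared regions the width had a Spearman rho of 0.49 and 0.48 with treatment fragments in lists 1 and 2, and of 0.11 and 0.15 with the fold. Across the 579 broad regions it was 0.13 and 0.17 with fragments, and -0.019 and -0.057 with the fold. The rule cuts the widths off at 1200 bp, which by itself lowers these values, and width, fragments and fold come from the same peak call.

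**Figure D3:**
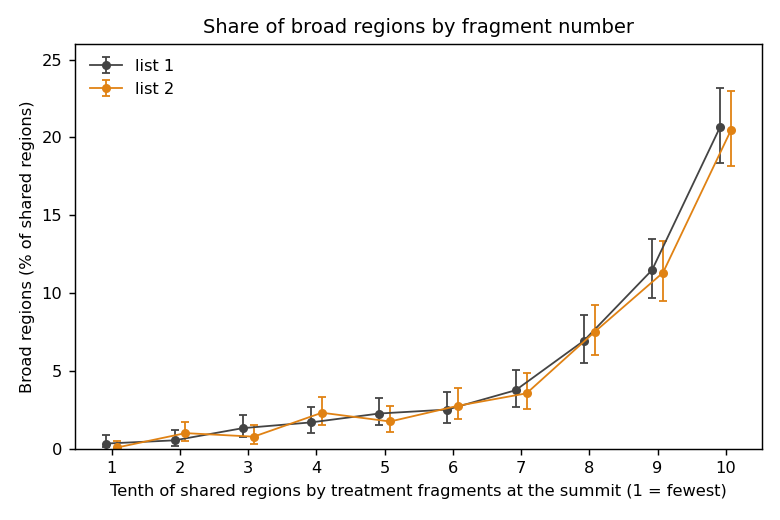
Share of broad regions (y axis, % of shared regions, with exact 95% binomial intervals) in 10 groups of shared regions ranked by treatment fragments at the summit (x axis), for list 1 (grey) and list 2 (orange). Both lists stay under 4% up to group 7 and reach 20.7% and 20.5% in group 10.

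At similar numbers of treatment fragments, broad regions had the lower control and the higher fold. Between 100 and 150 fragments in list 1 the median control was 12.0 in 190 broad and 16 in 297 narrow regions, and the median fold was 6.34 (interquartile range 4.50 to 8.67) against 4.49 (3.58 to 5.75). Between 80 and 120 fragments in list 2 the control was 15.8 in 176 broad and 21.7 in 358 narrow regions, with folds of 5.84 (4.28 to 8.29) and 4.35 (3.33 to 5.67). The order was the same at fewer fragments, with folds of 6.92 against 4.996 between 60 and 80 fragments in list 1 and 6.79 against 4.60 between 50 and 65 in list 2. The ratios without the pseudocount were 6.81 against 4.72 and 6.19 against 4.51 in the upper ranges. At near-equal fragments the control sets both fold and ratio, so these are 1 difference and not separate ones. Broad regions also had slightly more fragments in each range, with medians of 124 against 116 and 97 against 93 in the upper ones. The interquartile ranges of the fold overlapped in each case, and the ranges of fragments were chosen after the values had been seen. A wide peak is a longer stretch over which fragments exceed the control. The choice by width may therefore favour a lower control at given fragments, and by how much was not tested.

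A fold above 10 in both lists was found in 59 of 579 broad regions (10.2%, 7.85 to 12.9) and 74 of 4004 narrow ones (1.85%, 1.45 to 2.31). Over all shared regions it was 4.69%. Most of the gap between broad and narrow regions went away without the pseudocount. A ratio above 10 in both lists was then found in 78 broad regions (13.5%, 10.8 to 16.5) and 416 narrow ones (10.4%, 9.46 to 11.4), and in 11.7% of all. Chromosome 3 held 18 of the 59 broad regions with the higher deposited fold and chromosome 7 held 13. They held 136 and 77 of the 531 such regions among all shared ones. The strongest broad region, by the lower of its folds, lay at chromosome 3, 115133400 to 115135517. It was 2118 and 2077 bp wide and had folds of 43.5 and 44.5, with 206 and 175 treatment fragments over a control background of 2.1 and 2.96. It combined many treatment fragments with a low control background.

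Of the next 4 regions, 3 were also on chromosome 3. They lay at 95204013 to 95205505 (folds of 38.8 and 55.6), 160392181 to 160394127 (34.2 and 57.2) and 114986788 to 114988418 (31.8 and 33.8). The other was on chromosome 7, 125135481 to 125137373, with folds of 39.5 and 29.95 from 120 and 110 treatment fragments. The control background of these 4 ran from 0.626 to 1.75 in list 1 and 0.905 to 2.71 in list 2. At 2 of them in list 2 and 1 in list 1 it was the caller's genome-wide floor, so those folds rest on that floor. Such sites were few, with 6 of 579 broad regions at the floor in list 1 and 10 in list 2.

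At the other end were broad regions with a high control. The lowest fold was at chromosome 7, 167049742 to 167051300, with 2.04 in list 1 and 2.999 in list 2 (143 and 141 treatment fragments over 45.0 and 46.3). The others were chromosome 8, 63660125 to 63661884 (3.42 and 2.06), chromosome 7, 179277919 to 179279517 (2.08 and 2.51), and chromosome 5, 89922485 to 89924068 (2.57 and 2.11) and 50795876 to 50797809 (3.36 and 2.12). Their control background ran from 16 to 78.0 in list 1 and from 30.6 to 84.8 in list 2. In fragments they overlapped the strongest ones, with 88 to 251 in list 1 against 78 to 206.

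Broad peaks were often lopsided, and mostly to the same side in both lists. The distance from the summit to the nearer edge, the short arm, had a median of 453 bp in list 1 and 494 bp in list 2, and the long arm had 1035 and 1069 bp. Narrow peaks had short arms of 183 and 190 bp and long arms of 259 and 268 bp. The summit fell in the middle of 3 equal parts of the peak in 39.9% of broad regions in list 1 and 43.4% in list 2, against 85.5% and 84.3% of narrow ones. Over all shared regions it was 75.1% and 73.2%. A narrow peak is close to the shortest that was called, which leaves its summit little room to move.

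The long arm was at least 2 times the short arm in 60.1% of broad regions in list 1 and 56.6% in list 2. In 277 of 579 broad regions (47.8%, 43.7 to 52.0) the long arm was that long in both lists, against 157 of 4004 narrow regions. Regions in between reached 13.6% and all shared regions 11.9%. Of the 277 broad regions, the long arm pointed the same way in 251 (90.6%), against 75.2% of such narrow regions and 82.3% of such regions among all shared ones. In the 251 it pointed towards higher coordinates in 112 and towards lower in 139. Over all broad regions the longer arm was on the same side in 466 (80.5%, 77.0 to 83.6), against 63.1% of all shared regions. The region at chromosome 1, 190080535 to 190083311, is an example, with arms of 317 and 2435 bp in list 1 and 306 and 2462 bp in list 2. A long arm on the same side in both lists was thus frequent in lopsided narrow peaks as well. These measures of shape were picked with the peak values already seen.

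**Figure D4:**
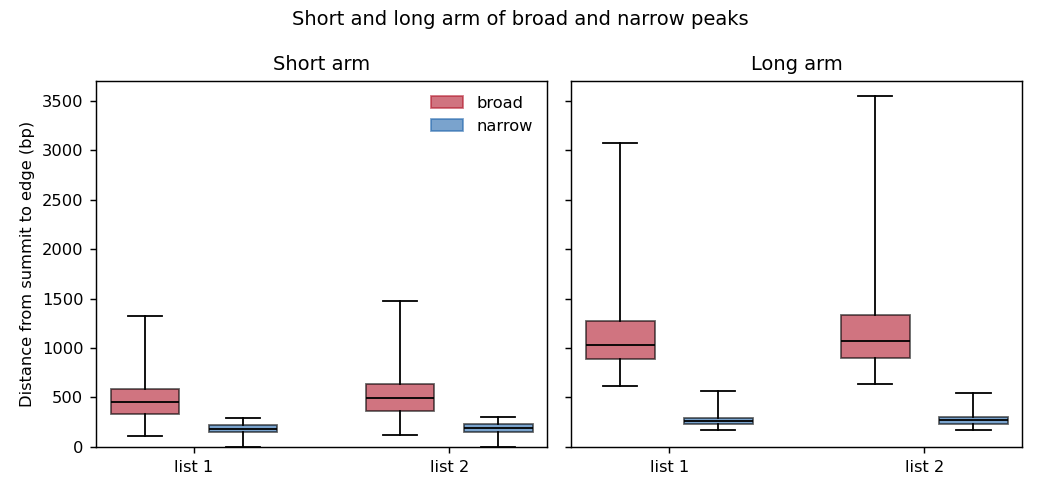
Distance from the summit to the nearer edge (left) and to the farther edge (right) in bp, for broad (red) and narrow (blue) regions of both lists; boxes show quartiles and median, whiskers the lowest and highest. The long arm of broad peaks has a median of 1035 and 1069 bp, about 2 times their short arm of 453 and 494 bp.

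The highest point was less settled in broad than in narrow regions. The summits of both lists were within 100 bp in 431 of 579 broad regions (74.4%, 70.7 to 77.9) and in 3454 of 4004 narrow ones (86.3%, 85.2 to 87.3), with median distances of 42 and 32.5 bp. Regions in between had summits within 100 bp in 77.6%, inside the interval of the broad ones, and all shared regions in 80.5%. Summits were over 300 bp apart in 72 broad regions (12.4%, 9.86 to 15.4), against 5.32% of regions in between and 3.98% of all. Only 20 narrow regions had summits that far apart, in peaks that leave little room for it. In most broad regions both lists thus placed the highest point within 100 bp, and in a smaller part it lay farther apart. Only 1 highest point per peak was used, so how many summits a broad region holds cannot be told.

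Other shared regions were more often close to a broad than to a narrow region. Another shared region lay within 10 kb of 304 of 579 broad regions (52.5%, 48.3 to 56.6), of 1502 of 4004 narrow ones (37.5%, 36.0 to 39.0) and of 41.4% of all. Within 2 kb it was 163 broad regions (28.2%, 24.5 to 32.0) against 18.1% of narrow ones. The median distance from edge to edge was 7787 bp for broad and 29377 bp for narrow regions. Position did not enter the choice of regions, but neighbouring regions are not independent, and the broad ones have more fragments, whose part in this difference was not tested.

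Broad regions also lay beside each other. In 9 cases the next broad region began within 2 kb, and in 36 within 50 kb. The closest pair was on chromosome 7, 134250777 to 134252786 and 134252897 to 134254988, with a gap of 110 bp. The first had 89 and 90 treatment fragments and the other 254 and 223, with folds of 4.90 and 4.39 and of 4.26 and 3.60. A gap of 297 bp parted a pair on chromosome 4 (183828800 to 183830091 and 183830389 to 183832167), and a gap of 349 bp a pair on chromosome 2 (49481441 to 49483010 and 49483360 to 49485715). In each pair the called signal had hardly a break.

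Among chromosomes, 7 had the highest share of broad regions and 10 the lowest. On chromosome 7, 88 of 1196 shared regions were broad (7.36%, 5.94 to 8.99), and on chromosome 10, 22 of 665 (3.31%, 2.08 to 4.97). Chromosome 2 had 89 of 1409 (6.32%, 5.10 to 7.72), and the other chromosomes had 3.91% to 5.32%. Over all its shared regions chromosome 7 had a median of 60 treatment fragments in list 1, where the other chromosomes had 58 to 68. The part of fragment numbers in the shares of the chromosomes was not tested. The broad regions of chromosome 7 had median folds of 6.91 and 6.14, and those of chromosome 3 had 7.36 and 6.54. The other chromosomes had 4.64 to 6.42 in list 1 and 4.70 to 6.27 in list 2, so chromosome 7 lay above them in list 1 only.

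The broad regions of chromosome 7 lay in 23 windows of 5 Mb, of which 3 held 38 of the 88, among 252 shared regions. The window from 125000001 to 130000000 held 15 of them among 76 shared regions (19.7%), the highest count of the 425 windows with a shared region. The window after it held 11 of 83 (13.3%), and that from 165000001 to 170000000 held 12 of 93 (12.9%). The widest broad region and one of the strongest named above lie in the first of these windows. Outside chromosome 7 the highest count was 10 of 94, on chromosome 2 from 190000001 to 195000000. Higher shares than 19.7% were found in windows with fewer shared regions. Examples are 4 of 17 (23.5%) on chromosome 1 from 100000001 to 105000000 and 2 of 8 (25%) on chromosome 8 from 40000001 to 45000000. All windows named were picked for their counts or shares and were not tested.

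In the outer parts of the chromosomes the broad regions were about as frequent as the other sites, and in the middle they were less frequent. The outer 10% of the span at either end held, together, 35.2% of broad regions (31.3 to 39.3), 33.1% of narrow ones and 33.8% of all shared regions. The share in the outer parts was higher for broad than for narrow regions on 6 of 10 chromosomes, from 68.2% against 41.5% on chromosome 10 to 11.4% against 27.7% on chromosome 4, so the chromosomes went both ways. The 20% of the span in the middle held 42 broad regions (7.25%, 5.28 to 9.68), against 10.1% of narrow and 10.1% of all regions. Genes and sequences at the broad regions were not analysed here, since no genome of this assembly was used.

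**Figure D5:**
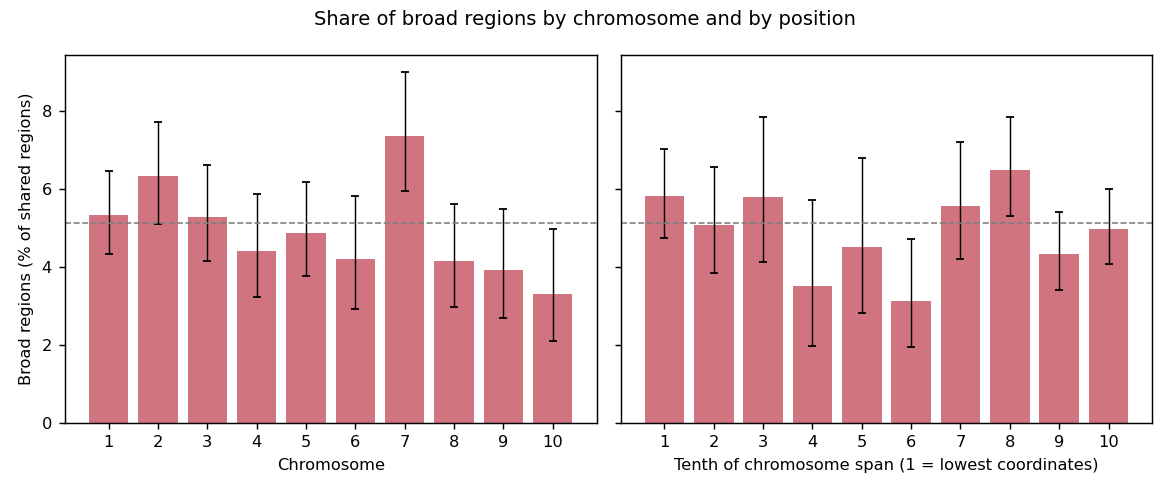
Share of broad regions among shared regions (y axis, %, with exact 95% binomial intervals) by chromosome (left) and by position in 10 equal parts of the chromosome span (right); the dashed line is the share over all, 5.12%. Chromosome 7 is highest at 7.36%, and the 10 parts range from 3.11% to 6.48% with overlapping intervals for most.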

How the data were processed

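Tools in the submitters' processing notes are MACS2 2.1.0, SAMtools 1.12, Bowtie2 2.4.1 and fastp 0.23.1, without settings. The genome build is not stated there, and contig names in the lists are those of B73 version 4. The deposited values of a peak are its edges and summit, the fold enrichment over the control (a linear ratio), −log10 p, −log10 q (of the p-value and q-value) and a score, which is 10 times −log10 q to within 1. Treatment fragments, as whole numbers up to 1000, and the control background were solved from the deposited fold and −log10 p with a tolerance of 0.001. This succeeded for 100% of peaks, with the treatment scaled by 0.650 in list 1 and the control by 0.986 in list 2. In list 1, 0.249% of peaks had a second solution, and the closest was kept. On 2000 simulated peaks per list, made from solved values with the same formula and scale, 100% were recovered. This checks the solving step only, and not whether the formula and scale are those of the caller. The values of a region are those of its widest peak in each list. Chromosome spans end at the last peak of either list. Intervals are exact (Clopper-Pearson for shares). No p-value was computed. Regions named are the 10 widest, the 5 with the highest and the 5 with the lowest fold, the 3 on either side of the limit and the 3 closest pairs. The members and the measures were chosen with earlier results of these data known. Python 3.11.15, pandas 2.3.3, numpy 2.4.6 and scipy 1.17.1 were used.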

Additional observations from a re-analysis of the deposited data

Results flagged for a closer look

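Wide peaks also occurred outside chromosomes 1 to 10. On unplaced contigs, which no comparison used, 6 pairs of overlapping peaks reached 1200 bp in both lists, each called above its control. Their folds ran from 2.17 to 4.94 in list 1 and from 2.55 to 4.64 in list 2.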

How the results depend on the processing

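Of 76 recomputed values, 41 stayed within the spread of the main value (the exact 95% interval of a share, the SD between the lists for a ratio of medians, 1.5 times for a count), 34 moved and 1 reversed. The reversed one is the median fold of broad over narrow regions, 1.07 as the mean of both lists and 0.969 without the pseudocount. In a setting chosen after seeing the data, a ratio above 10 without the pseudocount in both lists was found in 13.5% of broad regions, against 10.2% for the fold. The broad over narrow ratios of treatment fragments and control background, 2.68 and 2.63, stayed above 2 in every setting tried. With a limit of 1000 bp there were 1141 broad regions (10.1%), with ratios of 2.45 and 2.39. With 1500 bp there were 241 (2.13%), with ratios of 2.94 and 3.095, a fold ratio of 1.03 and 70.5% of summits within 100 bp. With narrow regions under 500 bp the ratios were 2.91, 2.98 and 1.10 for the fold. A reciprocal overlap of 50% gave a control ratio of 2.57. A −log10 q of at least 5 gave 2.57 and 2.55, and 1.03 for the fold. With width as the stretch common to both lists 5.93% were broad, with ratios of 2.51 and 2.52. The −log10 q in place of fragments gave 2.80. The outer 20% at each end held, together, 57.3% of broad regions, and another region lay within 2 kb of 28.2% and within 50 kb of 73.2%; these 3 change by construction. With 1 list alone the number of broad peaks was 790 to 1088 (5.50% to 6.27%), the ratios were 2.74 to 3.13 for treatment, 3.0 to 3.098 for control and 1.07 to 1.119 for the fold, 35.6% to 36.6% lay in the outer 10% at either end, and 56.7% to 62.4% had a neighbour within 10 kb. Fewer lists to pass gives more broad peaks by construction. Neighbours were then counted among all 14358 or 17344 peaks of the list and not among 11310 shared regions, which by itself gives more of them. Narrow peaks had a neighbour within 10 kb in 41.8% and 46.2%, against 37.5% of narrow regions with both lists. The cause of the other shifts was not tested. No paired analysis was possible because each list already combines a wild-type and a mutant library and no library has values of its own. Fragment numbers limit the fold of single regions, and total depth is unknown.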
